A study of Homo sapiens with 6 samples.

Results

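The extrinsic death pathway was followed through 9 genes in U251, an established line of human glioma cells with astrocytic features: the death receptor genes TNFRSF10A, TNFRSF10B, TNFRSF10D and FAS, the initiator caspase gene CASP8, its modulator CFLAR, and the inhibitor of apoptosis (IAP) genes XIAP, BIRC2 and BIRC3. They were taken by symbol from a table of 60612 genes, in which each symbol occurred in 1 row. The cells, labelled wild type, were cultured for 24 h without 6-shogaol (3 control libraries) or with it (3 treated libraries), and RNA sequencing measured their transcripts. 6-shogaol is a pungent ketone of dried ginger, and the labels give its dose as 60 with the unit written "μm", read here as micromolar. The study asked for anti-cancer effects of the compound on glioma. A single cell line was used, no solvent control is named for the untreated cells, and nothing in the labels says that replicates were separate cultures, so the spread behind every p-value may be technical.

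Death receptors are membrane proteins whose cytoplasmic death domain recruits the adaptor FADD and caspase-8 once a ligand binds. TRAIL, the product of TNFSF10, binds the signalling receptors DR4 (TNFRSF10A) and DR5 (TNFRSF10B) and decoy receptors that include DcR2 (TNFRSF10D), and FAS binds Fas ligand. Caspase-8 is activated on the receptor complex and cleaves executioner caspases, c-FLIP, the product of CFLAR, competes with it there, and the IAP proteins act further down: XIAP binds and blocks caspases, while cIAP1 (BIRC2) and cIAP2 (BIRC3) are ubiquitin ligases of the receptor complexes. In the deposited annotation 8 of the 9 genes carry the KEGG term for apoptosis and 4 the term for NF-kappa B signaling.

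Libraries held 43516840 to 60018999 counts, and a gene at 0 counts in a library could have had up to 0.05 to 0.0689 counts per 1000000 counts (CPM) there, taking 3 counts as the limit. Limits and intervals from counts cover counting error only. Of 10 glial and neural stem markers 8 were tested, and where edgeR called 1.71% of all tested genes lower, 2 of the 8 fell. These were the astrocyte filament gene GFAP, at 23.8 to 33.9 CPM in controls and 8.39 to 9.19 CPM in treated libraries, and the stem cell filament gene NES (log2 fold change -0.42, adjusted p = 0.0484). SOX2 and SOX9 were lower and CD44 higher without overlap (log2 fold changes -0.33, -0.24 and 0.25) and did not pass. Over all tested genes, 27.9% had groups without overlap in either direction. Vimentin (VIM) was at 5602 to 9763 CPM, and the 10 summed to 8458 to 8621 CPM in controls and 6941 to 11061 CPM with treatment. The astrocyte genes AQP4, S100B and ALDH1L1 were at most at 1.35 CPM, and OLIG2 at most at 0.322 CPM. Of 5 immune cell markers AIF1 and CD3E had no count. Summed over the 5, CPM ran from 12.8 to 14.7 in controls and from 15.8 to 28.3 in treated libraries, nearly all of it from CD68, a lysosomal protein that other cells also express. The 3 endothelial markers summed to 2.77 to 2.93 CPM in controls and 0.538 to 1.08 CPM in treated libraries, most of it from CDH5. CDH5 was called lower in edgeR (log2 fold change -1.77, adjusted p = 0.0192), VWF was lower without passing (adjusted p = 0.428), and PECAM1 was not tested. The 3 neuronal markers summed to 52.3 to 55.0 and 61.0 to 74.5 CPM. The 3 epithelial markers, nearly all of it KRT8, summed to 164 to 187 and 123 to 165 CPM. The part of such differences in the results below was not tested, and in bulk RNA fewer cells of a kind and less RNA per cell cannot be told apart.

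The 3 IAP genes differed in how clearly treatment separated their libraries, as described further on, and the promoter bases just upstream of each are shown here so that the neighbouring paralogs BIRC3 and BIRC2 can be compared with XIAP. Of the 9 genes 6 were matched by symbol to promoter entries. FAS, CASP8 and XIAP had 3 entries each, CFLAR 4, BIRC2 2 and BIRC3 1. Motif matches are given as 1 count per gene and need not hold for every start, whereas shares over all promoters are per entry. The sequences are from RefSeq on GRCh38.p14, plus strand, up to the last base before the start of the gene or of the RefSeq transcript, at chr11:102317234-102317449 for BIRC3, chr11:102346964-102347210 for BIRC2 and chrX:123859458-123859707 for XIAP. Capitals mark matches on either strand to GGG and CC with any 5 bases between them, a loose form of the sites that NF-kappa B binds. The windows of FAS, CASP8 and CFLAR, not shown, held 2, 1 and 2 such matches, so that all 6 matched genes had at least 1. Matches may overlap each other.
BIRC3: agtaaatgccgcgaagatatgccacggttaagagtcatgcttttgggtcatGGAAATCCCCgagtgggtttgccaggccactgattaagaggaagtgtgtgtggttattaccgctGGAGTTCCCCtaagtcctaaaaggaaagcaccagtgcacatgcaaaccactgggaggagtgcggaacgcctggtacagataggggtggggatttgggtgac
BIRC2: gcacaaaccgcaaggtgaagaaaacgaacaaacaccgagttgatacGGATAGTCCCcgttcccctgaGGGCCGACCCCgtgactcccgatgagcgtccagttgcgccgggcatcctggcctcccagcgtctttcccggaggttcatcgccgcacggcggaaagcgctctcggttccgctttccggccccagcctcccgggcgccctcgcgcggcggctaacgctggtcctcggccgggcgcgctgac
XIAP: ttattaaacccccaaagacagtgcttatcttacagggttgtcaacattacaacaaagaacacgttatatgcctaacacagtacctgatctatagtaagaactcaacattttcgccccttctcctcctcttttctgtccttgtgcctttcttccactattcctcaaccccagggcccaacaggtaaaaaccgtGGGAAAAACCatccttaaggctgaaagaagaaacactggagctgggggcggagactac
The G and C content of these stretches was 51.9% for BIRC3, 67.6% for BIRC2 and 44.8% for XIAP. Such a match occurred in 54.4% of 35116 RefSeq promoter entries (250 bases before the start). Neither a pair of GAAA with any 2 bases between them, as in interferon response elements, nor TGATG and AA with any base between them, as in ATF4 composite sites, with both strands searched, occurred in the 250 bases before the start of FAS, CASP8, CFLAR, XIAP, BIRC2 or BIRC3. They occur in 3.02% and 3.14% of entries.

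After 6-shogaol the transcripts of XIAP, BIRC3 and FAS stood 1.84-fold, 1.63-fold and 1.54-fold above controls. Those of BIRC2 and TNFRSF10B stood 1.22-fold and 1.13-fold above controls, with overlapping groups for BIRC2. CFLAR stood at 0.71 of the control level and CASP8 at 0.908, and none of these 7 values passed the test over all genes. The 7 genes with enough counts to be tested gave 0 calls in edgeR's quasi-likelihood fit (adjusted p under 0.05 by Benjamini-Hochberg over 19279 genes), where 3.38% of all tested genes were called, 1.67% higher and 1.71% lower with 6-shogaol. Without adjustment 4 of the 7 were higher at a p under 0.05 and 0 lower, where 20.4% of all tested genes were at that level, 10.4% higher and 9.95% lower. The 4 were XIAP, BIRC3, FAS and TNFRSF10B, and in each of them every treated library lay above every control library, as in 14.0% of all tested genes, while 13.9% lay apart in the other direction and 27.9% in either. DESeq2 called 3, XIAP, BIRC3 and FAS, all higher, with 4.96% of its genes called higher, and limma on log2(FPKM + 1) called 0 of the 5 it tested. The median log2 fold change of the 7 was 0.29, against -5.3e-05 over all tested genes.

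**Figure D1:**
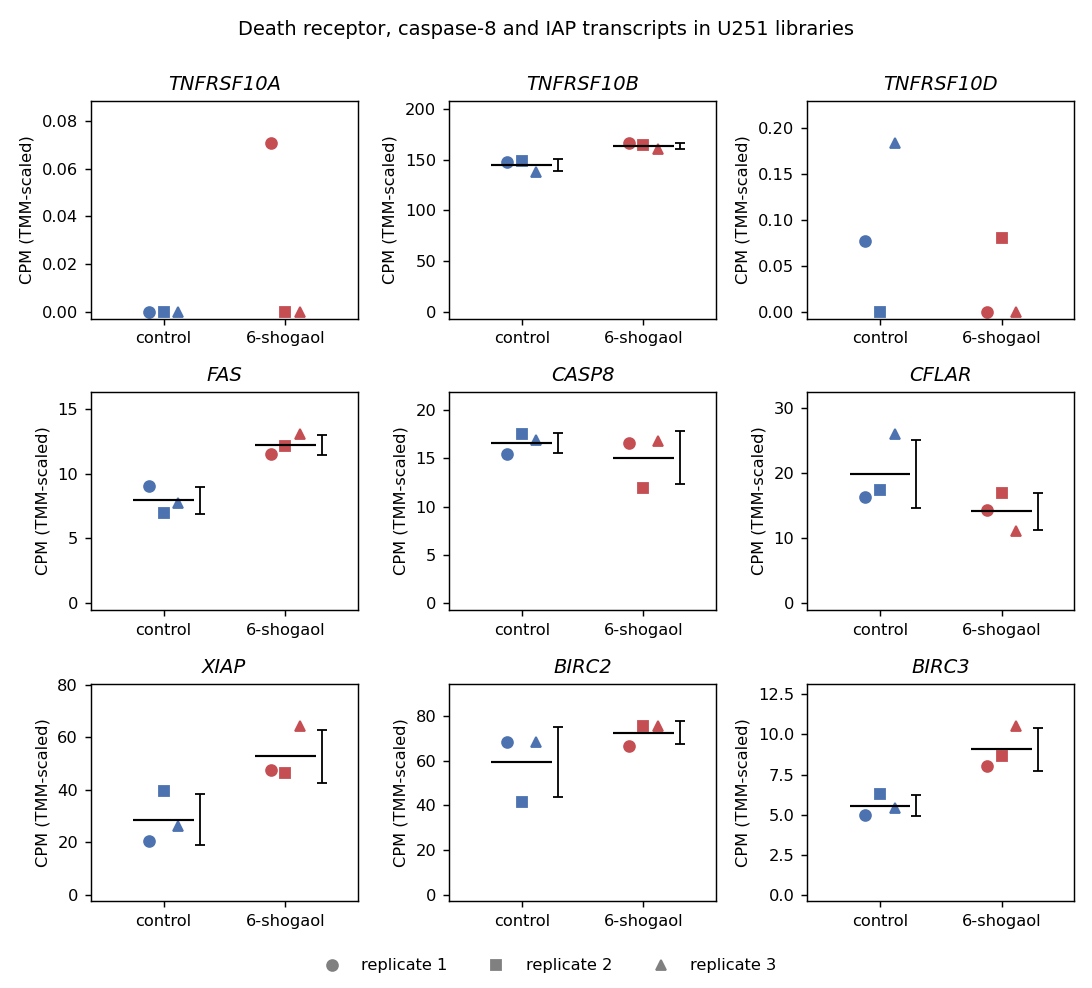
CPM, scaled by TMM, for each of the 9 genes in the 3 control (blue) and 3 treated (red) libraries, with replicate numbers as marker shapes; lines are means and bars SD (n = 3), left out for TNFRSF10A and TNFRSF10D. Treated libraries lie above all controls for TNFRSF10B, FAS, XIAP and BIRC3, and overlap them for CASP8, CFLAR and BIRC2.

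Of the 3 TRAIL receptor genes followed here U251 cells expressed that of DR5 almost alone. TNFRSF10C and TNFRSF11B, whose products also bind TRAIL, were outside this set. TNFRSF10C was at 0.0774 to 0.333 CPM in controls and 0.138 to 0.319 CPM with treatment (log2 fold change 0.46, edgeR adjusted p = 0.788). TNFRSF11B was at 0.638 to 0.753 and 0.832 to 0.957 CPM, without overlap (log2 fold change 0.31, edgeR adjusted p = 0.607). TNFRSF10B (ENSG00000120889, chromosome 8, 23020133 to 23069031 in GRCh38, minus strand) was at 148, 149 and 138 CPM in the controls and at 166, 164 and 160 CPM in the treated libraries, here and below in the order of replicates 1, 2 and 3. The groups lay apart by little more than the spread of the controls. Means were 145 ± 6.26 and 164 ± 3.08 CPM (SD, n = 3). The log2 fold change was 0.18 (SE 0.06, 95% interval 0.03 to 0.32), and the change did not pass (edgeR adjusted p = 0.171). As background, DR5 is induced by p53 and by the endoplasmic reticulum stress factor CHOP in many cells. Its exons share 1.30% of their length with RHOBTB2 on the other strand.

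TNFRSF10A (chromosome 8, 23190452 to 23225102), the gene of DR4, had no count in any control and 4, 0 and 0 counts in treated replicates 1, 2 and 3. The 4 counts correspond to 0.0724 CPM of the library total (exact 95% binomial interval 0.0197 to 0.185). TNFRSF10D (chromosome 8, 23135588 to 23164027), a decoy gene, had 4, 0 and 11 counts in controls and 0, 4 and 0 with treatment. Neither gene had enough counts to be tested, and a difference was not detectable at this depth. Per length, TNFRSF10D made up 0.0696%, 0% and 0.183% of the summed FPKM of the 3 receptor genes in controls and 0%, 0.0640% and 0% in treated libraries, so that TNFRSF10B gave nearly the whole sum in every library. The difference between the group means of 0.0843% and 0.0213% did not pass (two-sided exact permutation test, p = 0.4; with 3 against 3 libraries no p under 0.1 can occur, so that 0.05 could not be passed). All 3 genes lie on chromosome 8, 66556 bases apart between TNFRSF10B and TNFRSF10D and 26424 between TNFRSF10D and TNFRSF10A.

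FAS (ENSG00000026103, chromosome 10, 88990531 to 89017059, plus strand), the receptor of Fas ligand and a textbook p53 target, was at 9.07, 6.98 and 7.77 CPM in controls and at 11.5, 12.1 and 13.0 CPM with 6-shogaol. Every treated library lay above the highest control. The means of 7.94 ± 1.06 and 12.2 ± 0.772 CPM (SD, n = 3) gave a log2 fold change of 0.62 (SE 0.14, 95% interval 0.30 to 0.94, a fold of 1.54), just short of the threshold (edgeR adjusted p = 0.058). FAS passed in DESeq2 (adjusted p = 0.00825) and in edgeR when genes under 1 CPM in 3 libraries were left out (adjusted p = 0.0488, with 2.84% of the genes then tested called higher). Its adjusted p ran from 0.0662 to 0.18 in edgeR fits without 1 library. The exons of FAS share 8.93% of their length with ACTA2 on the other strand, and whether counting used the strand was not stated. ACTA2 was lower than in controls by 0.12 on the log2 scale (log2 fold change -0.12, edgeR adjusted p = 0.714), opposite in sign to FAS.

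Over the 6 libraries the log2 CPM of FAS was most like that of IMPDH2, the rate-limiting enzyme of guanine nucleotide synthesis (Pearson's r = 0.998), PRPSAP2, a regulator of phosphoribosyl pyrophosphate synthetase (0.996), and LMBR1 (0.988), among the 11721 other genes whose mean reached 5 CPM. These values describe 6 libraries in 2 groups, so they share the group difference. The same measure was 0.83 for TNFRSF10B and 0.82 for BIRC3, ranks 1128 and 1208 from the top, 0.75 for BIRC2, 0.65 for XIAP, -0.46 for CASP8 and -0.71 for CFLAR.

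CASP8 (ENSG00000064012, chromosome 2, 201233443 to 201287711, plus strand) was at 15.5, 17.5 and 16.9 CPM in controls and at 16.6, 11.9 and 16.8 CPM with treatment. Treated replicate 2 alone lay below the controls. The log2 fold change was -0.14 (SE 0.15, 95% interval -0.49 to 0.22, edgeR adjusted p = 0.669), and without treated replicate 2 it was 0.00. CFLAR (ENSG00000003402, chromosome 2, 201116154 to 201176687, plus strand) was at 16.3, 17.3 and 25.9 CPM in controls and at 14.3, 16.9 and 11.1 CPM with treatment. Control replicate 3 stood highest and treated replicate 3 lowest, and the groups overlapped. CFLAR had the most negative value of the 7 tested genes, a log2 fold change of -0.49 (SE 0.22, 95% interval -1.02 to 0.03) that did not pass (edgeR adjusted p = 0.271). Without control replicate 3 it was -0.25.

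The balance of c-FLIP and caspase-8 transcripts was compared as a ratio of FPKM values, which are per length. CFLAR stood at 0.338, 0.316 and 0.494 of CASP8 in controls and at 0.275, 0.453 and 0.209 in treated libraries. The treated libraries spread more widely than the controls and overlapped them. The mean log2 ratio was -1.41 ± 0.35 and -1.75 ± 0.56 (SD, n = 3), and the difference of -0.34 was within this spread (two-sided exact permutation test, p = 0.4). The length implied by counts and FPKM was a median of 1.19 times the union of annotated exons over 18452 genes. After division by that factor it was 1.01 times the union for CFLAR, which has 22529 bases, while its longest coding transcript has 14672. For CASP8 the union has 7243 bases and the transcript 2930. Per base of these transcripts the geometric mean ratio was 0.234 in controls and 0.186 with treatment, so that CFLAR stood lower against CASP8 than by FPKM. A fixed length per gene cancels from the difference between groups, which therefore says nothing about the gene model. The 2 genes lie 56755 bases apart.

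XIAP (ENSG00000101966, chromosome X, 123859724 to 123907020, plus strand), the IAP that binds caspases directly, had the largest value of the 7 tested genes. It was at 20.3, 39.5 and 26.1 CPM in controls and at 47.4, 46.3 and 64.4 CPM with 6-shogaol. Treated libraries all lay above the controls, but control replicate 2 came near the lowest of them and the controls spread almost 2-fold. The means of 28.6 ± 9.85 and 52.7 ± 10.2 CPM (SD, n = 3) gave a log2 fold change of 0.88 (SE 0.25, 95% interval 0.29 to 1.47, a fold of 1.84) that did not pass in edgeR (adjusted p = 0.113) and passed in DESeq2 (adjusted p = 0.00309). In edgeR fits without 1 library it ran from 0.69 to 1.18. Of the 50-base words of its longest coding transcript 4.98% also occur in transcripts of other genes, most often the pseudogene XIAPP1, which had 2 to 15 counts in a library.

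BIRC3 (ENSG00000023445, chromosome 11, 102317450 to 102339403, plus strand), the cIAP2 gene and a textbook NF-kappa B target, was per length the lowest of the 3 IAP genes. It was at 4.99, 6.31 and 5.38 CPM in controls and at 8.02, 8.63 and 10.5 CPM with treatment, again without overlap. Means were 5.56 ± 0.679 and 9.07 ± 1.32 CPM (SD, n = 3), with a log2 fold change of 0.70 (SE 0.16, 95% interval 0.32 to 1.09, a fold of 1.63). The edgeR adjusted p was 0.067, and DESeq2 gave an adjusted p of 0.0116. BIRC2 (ENSG00000110330, chromosome 11, 102347211 to 102378670, plus strand), the cIAP1 gene 7807 bases downstream, was at 68.3, 41.2 and 68.4 CPM in controls and at 66.4, 75.5 and 75.5 CPM with treatment. Apart from the low control replicate 2, its libraries stood close together. The log2 fold change was 0.29 (SE 0.19, 95% interval -0.16 to 0.74, edgeR adjusted p = 0.458), and 0.08 without control replicate 2.

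The paralogs share few words of 50 bases: 0.214% of those of the longest BIRC3 coding transcript occur in BIRC2 transcripts, and 0.274% of those of BIRC2 in BIRC3. The FPKM of BIRC3 was 0.0439, 0.0920 and 0.0472 of that of BIRC2 in controls and 0.0724, 0.0686 and 0.0840 in treated libraries. Control replicate 2, the library with low BIRC2, had the highest ratio of all. The log2 ratio was 0.38 higher with treatment, which is less than the control SD of 0.59 (two-sided exact permutation test, p = 0.4), and 0.71 higher without control replicate 2 (p = 0.1, the smallest that 3 against 2 allows). With no p under 0.1 possible, these tests could not pass 0.05, so they cannot decide whether the neighbouring genes differed in response.

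**Figure D2:**
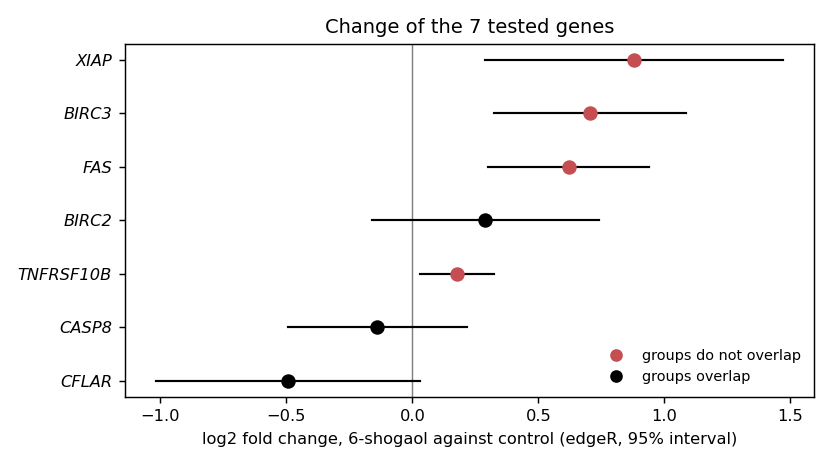
Log2 fold change of the 7 tested genes with 95% intervals from edgeR (x axis), 6-shogaol against control, n = 3 libraries per group. XIAP at 0.88, BIRC3 at 0.70, FAS at 0.62 and TNFRSF10B at 0.18 have intervals above 0 before adjustment and groups that do not overlap (red), and the intervals of BIRC2, CASP8 and CFLAR include 0.

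Per length, the order of transcript levels in controls was TNFRSF10B at 24.3 ± 0.867 FPKM, BIRC2 at 11.0 ± 2.94, XIAP at 2.67 ± 0.912, CASP8 at 1.92 ± 0.123, FAS at 1.19 ± 0.153, CFLAR at 0.735 ± 0.204 and BIRC3 at 0.618 ± 0.0738 FPKM (SD, n = 3). XIAP and CASP8 overlapped, and so did CFLAR and BIRC3. With 6-shogaol the values were 27.9 ± 0.885, 13.6 ± 0.779 and 4.99 ± 0.957 FPKM for TNFRSF10B, BIRC2 and XIAP. FAS at 1.85 ± 0.105 and CASP8 at 1.77 ± 0.345 FPKM then overlapped, and BIRC3 at 1.02 ± 0.145 lay above CFLAR at 0.526 ± 0.107. By the same factor FPKM lengths were close to the union of annotated exons, from 0.968 of it for TNFRSF10B to 1.06 for TNFRSF10D, except for FAS at 1.31. The union is longer than the longest coding transcript by a factor of 2.47 for CASP8, 1.66 for FAS and 1.54 for CFLAR. For CASP8 and CFLAR, FPKM is lower by about that factor than it would be per base of the transcript. For FAS it is lower by more, since its FPKM length was 5580 bases and its longest coding transcript has 2563.

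**Figure D3:**
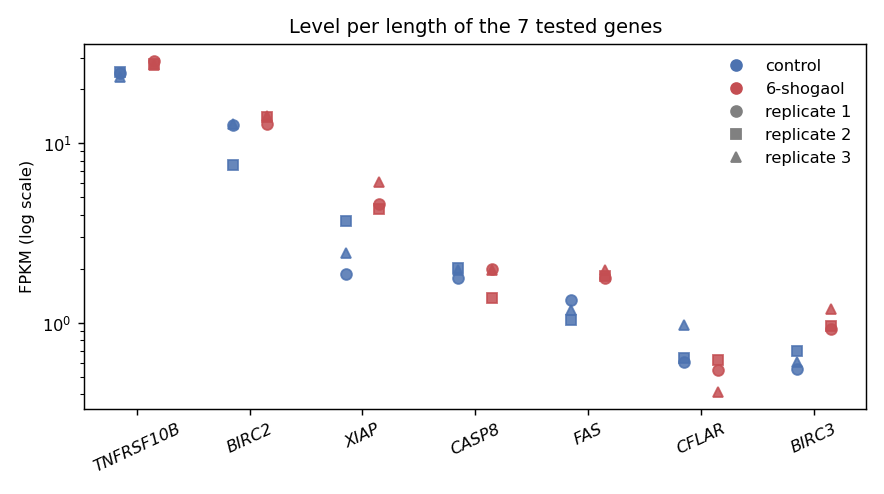
FPKM of the 7 tested genes on a log axis, ordered by their control mean, with 1 point per library (blue control, red 6-shogaol) and replicate numbers as marker shapes. TNFRSF10B stands highest at 23.3 to 28.9 FPKM, and BIRC3 and CFLAR lowest, overlapping in controls and apart in treated libraries.

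The rest of the pathway was read from 9 lists of 64 genes, of which 53 were tested. Of these 0 rose and 1 fell (edgeR adjusted p under 0.05), or 1.89% called against 3.38% of all tested genes, with a median log2 fold change of -0.02. Without adjustment 3 were higher and 10 lower at a p under 0.05, where 10.4% and 9.95% of all tested genes were. DESeq2 called 5 of 52, where it called 10.1% of all its genes, 4.96% higher and 5.13% lower. Of the 5, ACIN1, BIRC5, MLKL and FAIM were lower and OTULIN higher. The gene that fell in edgeR was ACIN1, the caspase substrate acinus of chromatin condensation and splicing, from 272 ± 7.15 to 199.8 ± 8.42 CPM (SD, n = 3; log2 fold change -0.45, SE 0.06, edgeR adjusted p = 0.0166). It kept that call without treated replicate 1 and lost it without any of the other 5 libraries (adjusted p up to 0.0898) and with the replicate number as a block (adjusted p = 0.109). Its exons share 7.03% of their length with C14orf119. The other 8 caspase substrate and nuclease genes did not pass.

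The 6 tested ligand and receptor genes and the 9 tested adaptor and kinase genes gave 0 calls in edgeR, with 1 (TNFSF10) and 2 (MLKL and FAIM) lower at unadjusted p under 0.05. Of the ligands, TNFSF10, which encodes TRAIL, was at 29.3, 28.0 and 26.7 CPM in controls and at 21.9, 20.2 and 24.2 CPM with treatment, without overlap. It had a log2 fold change of -0.34 (edgeR adjusted p = 0.11), opposite in sign to its receptor gene TNFRSF10B. FASLG had 4 counts or fewer in every library and TNF at most 0.253 CPM. The TNF receptor gene TNFRSF1A was at 115 to 152 CPM, with overlapping groups. Of the adaptors, FADD was at 34.4 to 37.5 CPM in controls and 37.9 to 39.1 CPM in treated libraries, apart by a narrow gap (log2 fold change 0.08, edgeR adjusted p = 0.622). MLKL, the executor of necroptosis, was at 7.12, 7.65 and 9.82 CPM and at 5.68, 5.58 and 4.20 CPM (log2 fold change -0.67, edgeR adjusted p = 0.11), while RIPK3, the kinase that activates it, had 0 counts in all 6 libraries.

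In the list of ubiquitin ligases and deubiquitinases of the receptor complex edgeR called 0 of 8, with 2 higher at unadjusted p under 0.05, OTULIN (log2 fold change 0.37) and TNFAIP3 (0.38), of which DESeq2 called OTULIN. RNF31, the catalytic subunit of the linear ubiquitin ligase, had the largest value (log2 fold change -0.56, edgeR adjusted p = 0.333), with 39.1% of its exon length shared with genes that include PSME2. Of 7 other initiator caspase and platform genes edgeR and DESeq2 called 0, with PIDD1 alone higher at unadjusted p under 0.05 (log2 fold change 0.28), and CASP2 had the largest value among those at a mean of 5 CPM or more (0.29, edgeR adjusted p = 0.599). CASP10, which encodes a relative of caspase-8 and lies between CFLAR and CASP8, was at 0.310 to 1.33 CPM over all libraries. CASP6, which encodes a caspase that acts downstream of the initiators, had a log2 fold change of -0.35 (edgeR adjusted p = 0.144), with every treated library below the controls. In the list of inflammatory and other caspases 0 of 3 tested genes were called in edgeR or DESeq2, with CASP1 alone lower at unadjusted p under 0.05 (log2 fold change -0.62), and CARD8 had a log2 fold change of 0.13.

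Other IAP genes gave 0 calls of 3 tested in edgeR, with 1 lower at unadjusted p under 0.05. BIRC5, which encodes survivin, an IAP of mitotic cells, was at 71.4, 87.9 and 74.1 CPM in controls and at 61.2, 54.0 and 60.1 CPM with treatment (log2 fold change -0.41, edgeR adjusted p = 0.0772), below every control and opposite in sign to XIAP and BIRC3. It passed in DESeq2 (adjusted p = 0.0128). Of 5 IAP antagonist genes edgeR and DESeq2 called 0, with 1 lower at unadjusted p under 0.05. DIABLO, whose product Smac frees caspases from IAPs, had a log2 fold change of 0.22 (edgeR adjusted p = 0.401) and SEPTIN4 of -0.37 (edgeR adjusted p = 0.126). XAF1, an interferon-inducible partner of XIAP, was at 0.600, 2.19 and 0.867 CPM in controls and at 0, 0.678 and 1.13 CPM with treatment, with overlapping groups.

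**Figure D4:**
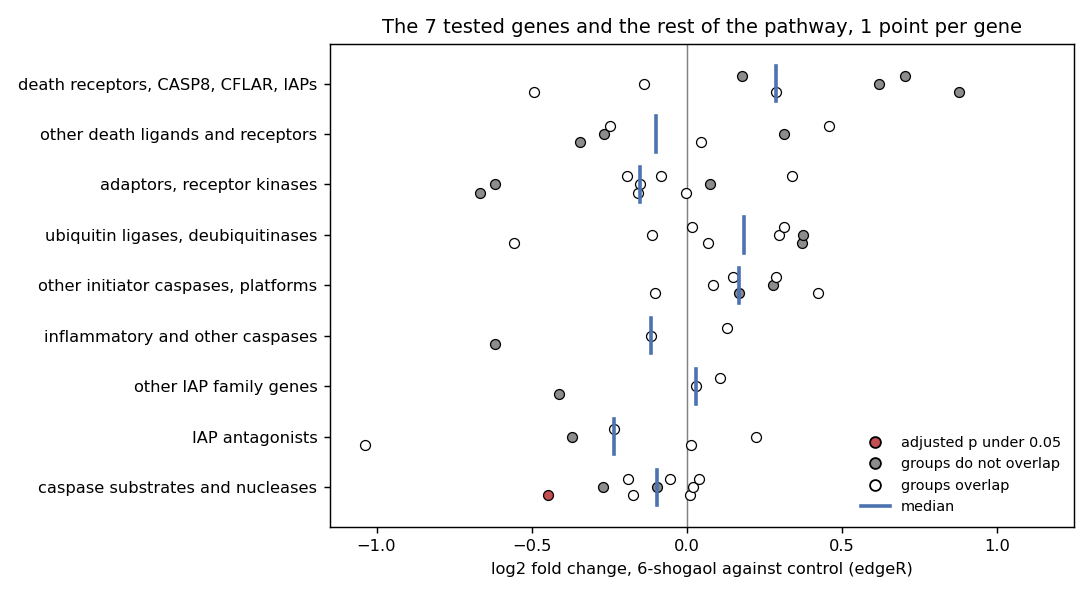
Log2 fold change (x axis, edgeR, 6-shogaol against control) of the 7 tested genes in the top row and of further pathway genes in 8 of the lists, with 1 point per gene; blue lines are list medians. ACIN1 at -0.45 is the only called gene (red), and grey points are genes whose 3 control and 3 treated libraries do not overlap.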

How the data were processed

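One deposited table holds the authors' raw gene counts without normalization. The other holds FPKM values, per the file headers, beside the same counts (0 differences). Columns were matched to samples by title. For aligner, counting tool and strand, nothing was given in the sources used here. Builds in the submitters' processing notes are the mouse builds GRCm38 and mm10, but all 60612 identifiers are human, 58394 are in GENCODE 29 (GRCh38), and 99.9% of these overlap the same gene there. FPKM is listed as 0.0001 for genes with no count in a library and was read as 0 in shares.

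Differential expression used edgeR 4.0.16 in R 4.3.3 on the counts (filterByExpr, TMM, glmQLFit, glmQLFTest), which left 19279 genes, with Benjamini-Hochberg adjustment over all of them and a threshold of 0.05. The SE was computed from the log2 fold change and its F statistic, and 95% intervals from it with edgeR's total degrees of freedom (residual plus prior). Ratios were tested by exact permutation (Python 3.11.15). The fit was tested on simulated counts. It recovered 20% of 50 genes changed 1.5-fold and 68% of 50 changed 2-fold, with 14 false calls among 154 calls. Alternatives comprised DESeq2 1.42.0, scaling by RLE or upper quartile, other filters, limma 3.58.1 on FPKM, the replicate number as a block and each library left out. The genes, lists and tests were chosen with earlier results of these data known. Named pathway genes were those called and, per list, the one with the largest change at a mean of 5 CPM or more. TNFRSF1A, TNFRSF10C, TNF, FASLG, FADD, RIPK3, CASP10 and DIABLO were added for their roles or p after values were seen. So were TNFRSF11B, XAF1, FAIM, OTULIN, TNFAIP3, PIDD1 and CASP1. Some genes of the lists are not reported here. The 3 genes most like FAS follow from its smallest unadjusted p.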

Additional observations from a re-analysis of the deposited data

How the results depend on the processing

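Of the 9 genes, edgeR called 0 with RLE or upper-quartile scaling, with no filter, with the replicate block and in every fit without 1 library (0 to 0), limma called 0 in each of its 3 forms, DESeq2 called 3 and the filter of 1 CPM in 3 libraries called 1. BIRC3 and CFLAR were not tested by limma with its filter. The count at unadjusted p under 0.05, 4 higher and 0 lower in the main fit, varied. It was 3 higher and 1 lower in DESeq2 and without treated replicate 2, and 4 higher and 1 lower without control replicate 1. With the replicate block, without control replicate 3 and in limma with its filter it was 3 higher and 0 lower. The directions held in every alternative, except that the log2 fold change of CASP8, from -0.22 to 0.0031 without 1 library, was 0.0031 without treated replicate 2. Of the 53 other pathway genes 1 was called, against 2 with upper-quartile scaling, 5 in DESeq2, 3 with the filter of 1 CPM, 2 in limma on log2(FPKM + 1) or log2(FPKM + 0.1), 0 with the replicate block and 0 to 2 without 1 library. Of all genes 651 were called, against 1554 in DESeq2, 378 with no filter, 272 in limma with no filter, 3 with the replicate block and 98 to 1012 without 1 library (1012 without treated replicate 1). Replicate numbers showed no sign of pairing the libraries: deviations from the group means correlated at -0.05, 0.05 and -0.04 within numbers 1, 2 and 3, and 0 of the 3 pairs exceeded 0.1. Control replicate 3 and treated replicate 1 correlated at 0.12. Whether libraries were paired in another order was not tested. The block cannot move the CFLAR to CASP8 difference of -0.34 or the BIRC3 to BIRC2 difference of 0.38 (log2), since the numbers are balanced. Their exact permutation p went from 0.4 to 0.75 and from 0.4 to 0.5. Swaps within replicate numbers allow fewer arrangements, so these p cannot be compared with those of the test without the block. Without 1 library the 2 differences ran from -0.64 to -0.09 and from 0.18 to 0.71. The longest coding transcript as length for CFLAR and CASP8, chosen after seeing the data, cancels from the difference and tests nothing. The TNFRSF10D share differed by -0.063 percentage points, and by -0.11 to -0.013 without 1 library. The counts of TNFRSF10A and TNFRSF10D were too few for any difference to be read.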
